A study of Mus musculus with 68 samples.

Results

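PA2 was compared with PA1 in mouse embryos labelled Hoxa2-/- at embryonic day 9.5 (E9.5), to ask what parts the arches when the label says that Hoxa2 is lost. The comparison rests on 10 of the 68 arch libraries of the study, the PA2 and the PA1 of 5 embryos, chosen by arch, genotype label and stage and by no measured value. Replicate number 1 to 5 is the embryo, because the series text says that the arches came from a single embryo. Every group shares the strain CBA/Ca/J x C57BL/10 and received no agent, and each library holds polyadenylated RNA of a whole hand-dissected arch. The other groups used are wildtype embryos of E9.5 (5 PA1 and 4 PA2 libraries) and embryos labelled Hoxa2-/- at earlier and later stages, E9.0 (4 and 4), E10.0 (5 and 5) and E10.5 (3 and 3). The labels name no Hoxa2 allele, and nothing in them sorts the cells of an arch.

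A pharyngeal arch is a bulge in the side wall of the embryonic throat, with a core of mesoderm and neural crest mesenchyme between an outer ectoderm and an inner endoderm that folds into pouches. PA1 forms the jaws and PA2 forms the hyoid and the stapes. Hoxa2 is the homeobox gene that gives PA2 crest its identity, PA1 crest expresses no Hox gene, and loss of Hoxa2 in mice is known to replace PA2 skeleton by a mirror copy of PA1 elements. Hox proteins bind DNA together with PBX and MEIS proteins of the TALE class.

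Values are CPM, counts scaled by the library, as deposited. Differences are PA2 minus PA1 in log2(CPM + 1), where low genes appear to change less than they do. Libraries held 12226679 to 15582280 reads, so that 3 reads, the limit that a count of 0 allows, stood at 0.196 to 0.245 CPM. A gene is called higher or lower where its adjusted p (limma, Benjamini-Hochberg over all genes tested) is under 0.05. In whole arches, fewer cells of a type and less RNA per cell cannot be told apart.

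Hoxa2 itself, the labelled gene (ENSMUSG00000014704, chr6:52162417-52164831, minus strand, mm10), was read in every library before the rest. In PA2 labelled Hoxa2-/- it stood at 48.9, 48.6, 53.5, 102 and 50.6 CPM in embryos 1 to 5, and in wildtype PA2 at 42.3, 49.2, 33.0 and 38.5 CPM. In PA1 labelled Hoxa2-/- it stood at 0.33, 0.237, 0.282, 0.457 and 0.34 CPM. The RNA of the labelled gene was thus not lower than in wildtype. Whether the allele is expected to leave an RNA is not known, because the labels do not name it. Whether the RNA makes a working protein was not measured. The log2 difference between the arches was 5.47 (SE 0.16, adjusted p 6.8e-36, and 5.31 without embryo 4), the largest of the comparison. The 250 bases before the Hoxa2 start are shown because the locus is the strongest mark of PA2 here and because they hold a match to both motifs searched. Capitals mark the matches, and the window is chr6:52164832-52165081 on the minus strand (RefSeq, GRCm38.p6, the assembly of mm10).
Hoxa2: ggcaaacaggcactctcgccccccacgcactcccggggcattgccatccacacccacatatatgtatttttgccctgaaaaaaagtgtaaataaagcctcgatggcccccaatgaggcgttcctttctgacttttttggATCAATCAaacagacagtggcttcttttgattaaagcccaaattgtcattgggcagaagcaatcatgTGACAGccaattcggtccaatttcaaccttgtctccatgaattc

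Some libraries stood apart from the rest of their group, in genes that were looked at after the comparison was made. Embryo 4 did so in both arches. Bcl11a, a zinc finger gene that rises with stage in these arches, stood at 16.3 CPM in its PA1 and 13.1 in its PA2, against at most 2.99 in the other 4 embryos and 13.7 to 29.8 in the libraries labelled Hoxa2-/- at E10.0. Lhx8 in its PA1 was 55.5 CPM, against 6.06 to 15.3 in the other 4 and 58.1 to 76.3 at E10.0. Meox1 and Fgf4 in its PA2 were also nearest to their E10.0 values. PA1 of embryo 3 stood apart by matrix genes, with Postn (periostin) at 2507 CPM against 32.2 to 96.0 in the other 4 PA1 libraries and collagens summing to 7573 CPM against 2209 to 2483. Several results below are given without these libraries too.

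**Figure D1:**
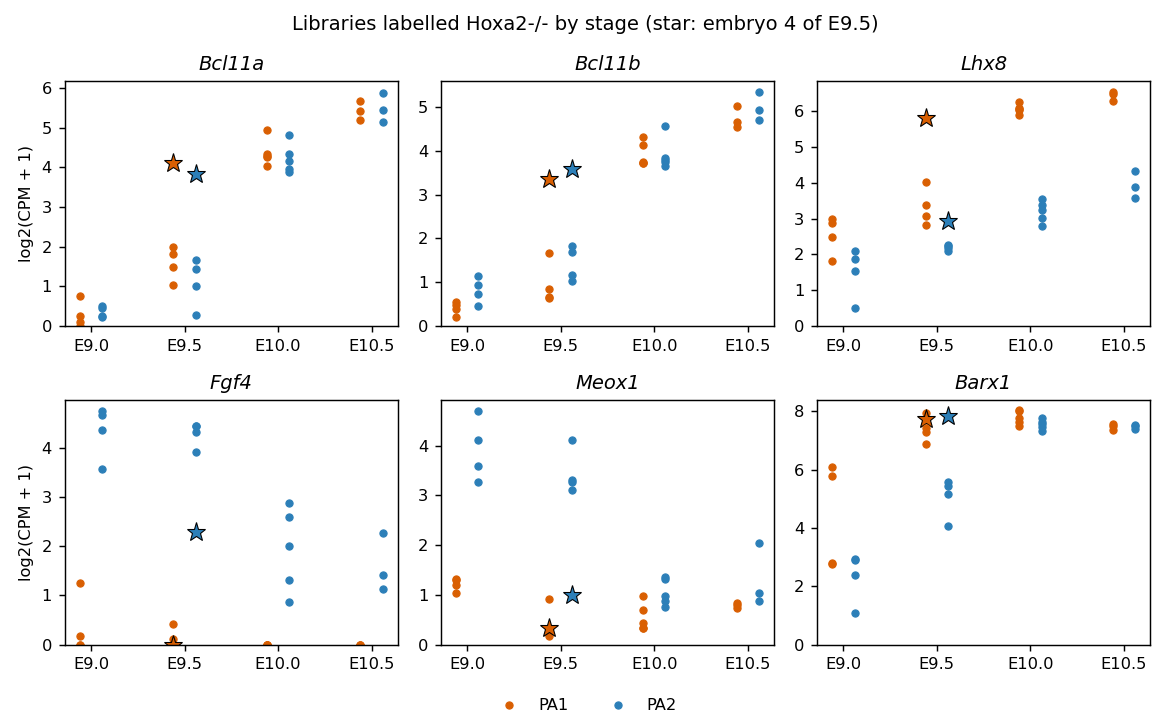
Level of 6 genes by stage in libraries labelled Hoxa2-/-, log2(CPM + 1) on the vertical axis, one point per library, PA1 in orange and PA2 in blue, with embryo 4 of E9.5 as stars. Bcl11a of embryo 4 (16.3 CPM in PA1 and 13.1 in PA2) lies inside the E10.0 range in PA1 and just below the lowest E10.0 library (13.7) in PA2, and its PA2 has the lowest Fgf4 (3.88 CPM) and Meox1 (1.01 CPM) of E9.5.

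Across all genes, 1766 of 18428 tested were called between the arches, 9.58% of them. PA2 was above PA1 for 1127 of them (6.12%) and below for 639 (3.47%), with a median size of 0.58. Large differences leaned toward PA2, since 261 called genes were higher by at least 1 and 54 lower by at least 1. PA2 and PA1 libraries did not overlap for 191 of these 315 genes, and 6.86% of all genes tested did not overlap (3.52% with PA2 above and 3.35% with PA2 below). With the embryo as a block 2922 genes were called (15.9%, with 1641 or 8.9% higher and 1281 or 6.95% lower), and with only the groups compared in the fit 870. Leaving out both arches of embryo 4 gave 1737. Called or not, 22.9% of all genes tested had the same sign in 5 of 5 embryos.

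**Figure D2:**
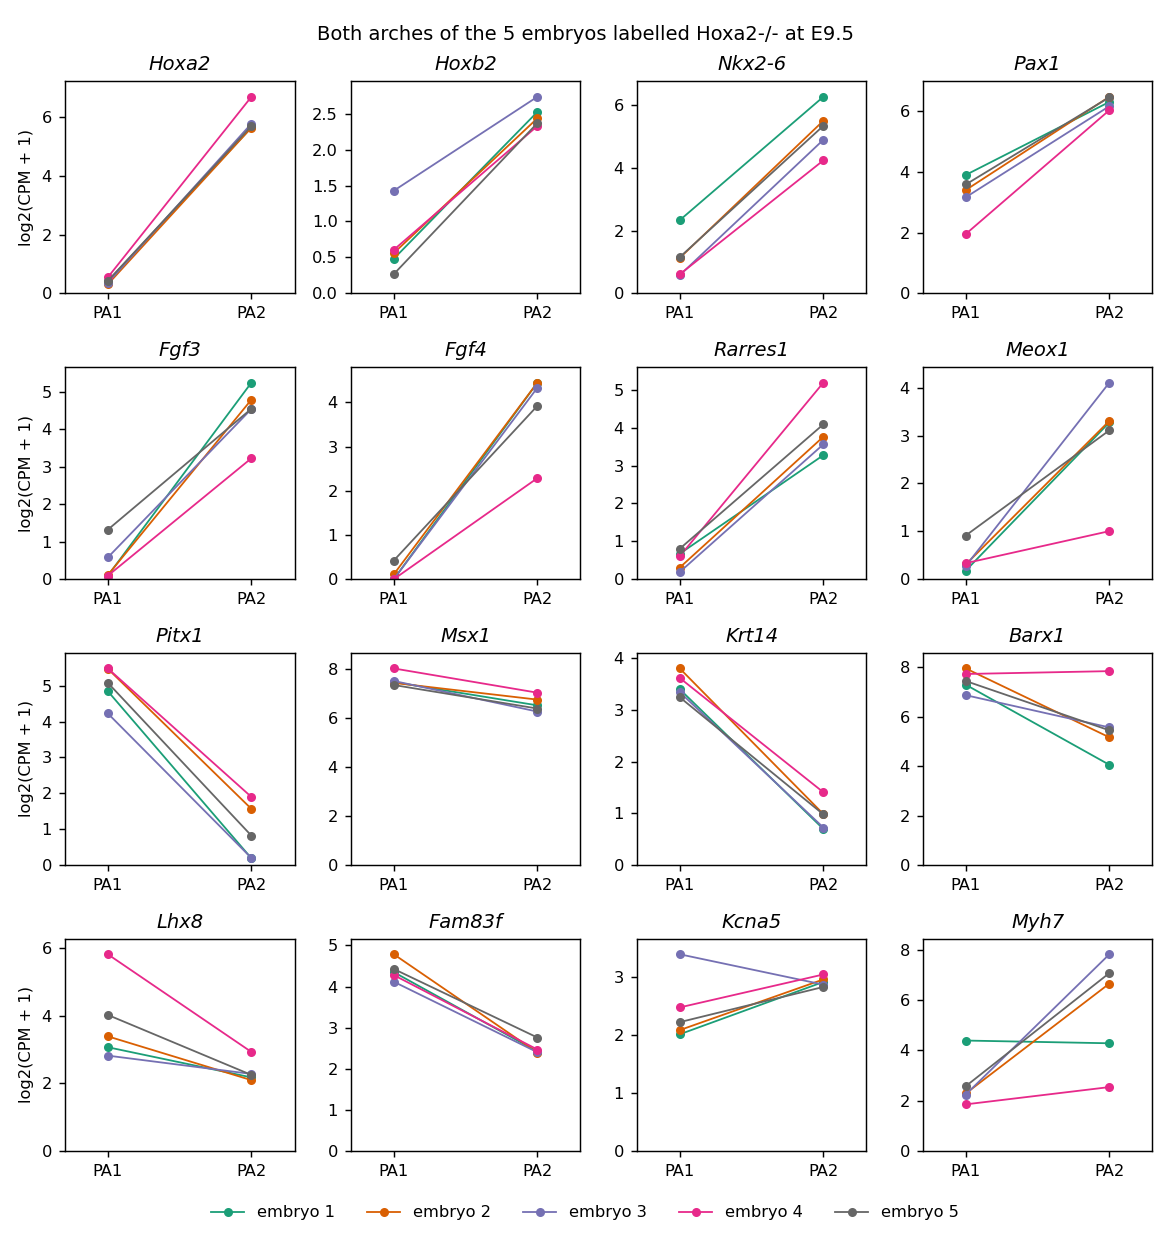
Level of 16 genes in PA1 (left) and PA2 (right) of each embryo labelled Hoxa2-/- at E9.5, log2(CPM + 1) on the vertical axes, with a line joining both arches of an embryo. Hoxa2, Nkx2-6, Pax1, Fgf3 and Fgf4 are higher in PA2 in all 5 embryos and Pitx1, Msx1, Krt14 and Fam83f lower in all 5, while Barx1 of embryo 4 is as high in PA2 as in PA1.

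The list of anterior Hox genes, which set position along the body axis, and of noncoding transcripts beside them was on the side of PA2. Of 7 tested, 5 were called higher and 0 lower (6 with the block). The median log2 difference was 1.39 against -0.02 for all genes tested. The 5 were the labelled gene Hoxa2, Hoxb2, Hoxa3 and the noncoding transcripts Hoxaas2 and Hoxb3os (1.02). Hoxb2, a paralog of Hoxa2, stood at 0.396, 0.474, 1.69, 0.522 and 0.204 CPM in PA1 and 4.76, 4.41, 5.66, 4.02 and 4.17 in PA2 of embryos 1 to 5, a log2 difference of 1.81 (SE 0.14, adjusted p 7.8e-15). No PA1 library reached a PA2 library. Hoxa3, the next gene of the same cluster, was at 0 to 0.611 CPM in PA1 and 1.44 to 2.45 in PA2 (1.39). Hoxaas2 lies on the other strand, at chr6:52165674-52169564, beyond the Hoxa2 span. It was at 0.0705 to 0.196 CPM in PA1 and 7.31 to 19.5 in PA2 (3.46), but counting by strand is not stated and its span overlaps that of Hoxa3. Hoxb1 had 0.34 and was not called (adjusted p 0.43).

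Of the 9 TALE cofactors tested, 3 were called higher in PA2 and 0 lower. Meis1, a DNA-binding partner of Hox proteins, stood at 47.2, 43.7, 71.6, 60.7 and 38.3 CPM in PA1 and 75.2, 104, 102, 122 and 92.8 in PA2. The groups did not overlap (log2 difference 0.93, SE 0.13, adjusted p 7.9e-07). Meis3 rose less, from 27.6 to 35.4 CPM in PA1 to 42.0 to 50.9 in PA2 (0.55). Pbx4 had 0.59 (adjusted p 0.039). Meis2, Pbx2 and Pbx3 had 0.15, -0.16 and -0.12 and were not called.

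Genes of the pharyngeal endoderm and its pouches made the largest block on the PA2 side. Of 21 tested, 16 were called higher and 1 lower, against 6.12% and 3.47% of all genes, and the median log2 difference was 0.94. With only the groups compared in the fit the list gave 9 and 0. Nkx2-6 (ENSMUSG00000044186, chr14:69171802-69175518, plus strand), a homeobox gene of pharyngeal endoderm and one of the markers named for the comparison, stood at 4.03, 1.19, 0.493, 0.522 and 1.22 CPM in PA1. In PA2 it stood at 75.6, 44.1, 28.7, 17.8 and 39.4 CPM. The lowest PA2 library was thus above the highest PA1 library, and embryo 1 was high in both arches (log2 difference 4.08, SE 0.28, adjusted p 2.9e-17).

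Pax1, a paired-box gene of pouch endoderm, stood at 13.9, 9.57, 7.96, 2.87 and 11 CPM in PA1 and at 78.0, 87.9, 70.8, 64.5 and 86.9 in PA2 (3.09, SE 0.26, adjusted p 2.6e-14). Its close relative Pax9 was at 1.19 to 2.51 CPM in PA1 and 6.60 to 11.8 in PA2 (1.92). Neither gene overlapped between the arches. The bases before Pax9 (chr12:56695221-56695470, plus strand, inside the annotated span of the gene but in no exon) are shown as those of a pouch gene, with a MEIS motif match in capitals.
Pax9: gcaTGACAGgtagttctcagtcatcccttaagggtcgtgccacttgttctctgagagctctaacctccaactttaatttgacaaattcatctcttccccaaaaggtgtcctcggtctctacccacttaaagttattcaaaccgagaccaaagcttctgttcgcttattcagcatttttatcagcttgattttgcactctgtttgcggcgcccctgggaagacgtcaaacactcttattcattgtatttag

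Pax8, required for thyroid follicle cells, stood at 29.1, 26.1, 25.3, 1.29 and 23.5 CPM in PA2 and at 0 to 1.91 in PA1 (3.37, adjusted p 7.6e-07, and 4.16 without embryo 4). Nkx2-1, the homeobox gene of the thyroid bud, stood at 5.52, 8.99, 7.40, 0 and 7.08 CPM in PA2 and at 0 to 0.99 in PA1 (1.96, adjusted p 0.0055, and 0.058 with only the groups compared). Hhex, also of the thyroid bud, was at 13.7, 18.6, 10.2, 5.17 and 10.9 CPM in PA2 and 3.10 to 6.67 in PA1 (1.13). PA2 of embryo 4 was the lowest of its group in all 3. Tbx1, a T-box gene of endoderm and mesoderm, was at 7.44 to 23.2 CPM in PA1 and 34.5 to 75.6 in PA2 (1.64), and Isl1 at 23.0 to 41.4 and 54.0 to 104.6 (1.44). Eya1, Foxi3, Ripply3, Foxa1, Sox17, Nkx2-3 and Sox2 were called higher by 0.50 to 1.25. Foxa2, a forkhead gene of the endoderm midline, was the member called lower, at 1.26 to 3.07 CPM in PA1 and 0.552 to 1.46 in PA2 (-0.72, adjusted p 0.0078), and it was not called without embryo 4, when the list gave 17 higher and 0 lower.

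Genes of the fibroblast growth factor (FGF) family were called higher for 9 of 15 tested and lower for 0 (median 0.75). Many members are ligands secreted by pharyngeal endoderm and ectoderm to act on neighbouring mesenchyme, but not all are secreted. Fgf3 (ENSMUSG00000031074), also a named marker, stood at 0.066, 0.0791, 0.493, 0.0652 and 1.49 CPM in PA1 and at 36.8, 26.6, 22.2, 8.34 and 22.3 in PA2. Its log2 difference was 4.03 (SE 0.26, adjusted p 3.3e-18), with no overlap and with PA2 of embryo 4 lowest. Fgf4 was listed at 0 in PA1 of embryos 1, 3 and 4, at 0.0791 CPM in embryo 2 and at 0.34 in embryo 5, and stood at 20.8, 20.8, 19.2, 3.88 and 14.2 CPM in PA2 (3.78, SE 0.29, adjusted p 1.3e-15). Fgf15 was at 0.264 to 0.883 CPM in PA1 and 3.66 to 18.3 in PA2 (2.97).

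These 3 ligand genes lie in a row on chromosome 7, Fgf3 at 144838083-144844436, Fgf4 at 144847367-144865243 and Fgf15 at 144896531-144900953, all on the plus strand. Of the neighbours tested, Ccnd1 and LTO1 had -0.16 and -0.03 and were not called. Gm26793, which overlaps Fgf15 on the other strand, was called (0.95), and without strand its reads cannot be told from those of Fgf15. The bases before Fgf4 (chr7:144861136-144861385, plus strand, inside the annotated span but in no exon) are shown for this row of genes, with a MEIS motif match in capitals.
Fgf4: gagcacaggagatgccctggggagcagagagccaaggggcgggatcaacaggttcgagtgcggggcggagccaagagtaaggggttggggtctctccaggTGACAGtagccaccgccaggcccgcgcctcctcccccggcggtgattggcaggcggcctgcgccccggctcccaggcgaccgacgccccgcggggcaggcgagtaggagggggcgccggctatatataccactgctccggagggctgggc

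Other genes of the FGF family differed by less. Fgf1, Fgf9, Fgf20, Fgf18, Fgf17 and Fgf13 were called higher by 1.55, 1.28, 1.055, 0.79, 0.75 and 0.51, of which Fgf20 and Fgf18 did not exceed 2.23 CPM in any of these libraries. Fgf8, the ligand of arch ectoderm needed for survival of PA1 crest, was not called at this stage, with 21.4, 30.4, 17.2, 28.1 and 23.8 CPM in PA1 and 28.7, 20.7, 20.6, 8.69 and 16.2 in PA2 (-0.40, adjusted p 0.18). None of the 5 FGF receptor genes was called. Fgfr2 was lower in PA2 in 5 of 5 embryos (-0.41, adjusted p 0.056), where 22.9% of all genes tested had the same sign in all 5. With the block it was called (adjusted p 0.019), as were 15.9% of all genes. Over all genes 4297 had an unadjusted p under 0.05, and edgeR also called 0 of the receptors.

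Genes that respond to FGF signalling were called higher for 6 of 11 tested and lower for 0 (median 0.53). Etv4, Etv1 and Etv5, ETS factors induced by FGF, had 1.084, 0.70 and 0.65. Spry1, a feedback inhibitor, stood at 70.2, 86.3, 47.6, 50.2 and 57.4 CPM in PA1 and at 163, 137, 113, 65.2 and 103 in PA2 (0.86, SE 0.19, adjusted p 0.0014). It was higher in PA2 of every embryo, although PA2 of embryo 4 lay inside the range of PA1. Dusp6, Spry2 and Spry4 had 0.25, 0.50 and 0.29 and were not called. With only the groups compared in the fit the list gave 3 higher.

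Homeobox genes of jaw mesenchyme and oral tissue were on the side of PA1. Of 12 tested, 7 were called lower in PA2 and 1 higher, with a median of -0.84. With only the groups compared in the fit 3 were called lower and 0 higher, and Lhx8 (adjusted p 0.097), Barx1 (0.072) and Emx2 (0.088) were not called. Pitx1 (ENSMUSG00000021506, chr13:55825051-55836192, minus strand), a homeobox gene of the oral region and the marker named for PA1, stood at 27.9, 43.5, 17.8, 43.8 and 32.9 CPM in PA1 and at 0.138, 1.96, 0.145, 2.73 and 0.764 in PA2. The groups were far apart in every embryo (-4.09, SE 0.28, adjusted p 7.9e-18).

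Msx1, expressed in distal arch mesenchyme, stood at 175, 171, 181, 258 and 161 CPM in PA1 and 90.1, 106, 75.5, 129 and 82.3 in PA2 with no overlap (-0.97, SE 0.18, adjusted p 7.7e-05). Its relative Msx2 had -0.72. Lhx8, a LIM homeobox gene of oral mesenchyme, stood at 7.39, 9.49, 6.06, 55.5 and 15.3 CPM in PA1 and 3.52, 3.27, 3.85, 6.61 and 3.75 in PA2 (-1.48, and -1.13 without embryo 4). Barx1, a homeobox gene of proximal arch mesenchyme, was at 155, 246, 116, 210 and 172 CPM in PA1 and 15.6, 34.8, 46.3, 228 and 42.6 in PA2. PA2 of embryo 4 alone was at the level of PA1, so the log2 difference was -1.84 (adjusted p 0.0087) with that embryo and -2.33 (adjusted p 0.00085) without it. Barx1 was not called by edgeR (adjusted p 0.055) or without PA2 of embryo 1 (0.057). Emx2 was the member called higher, at 0 to 2.81 CPM in PA1 and 1.24 to 8.91 in PA2 (1.45). Lhx6, Gsc and Nkx3-2 had -0.37, -0.68 and 0.26 and were not called, although Gsc was called with the block (adjusted p 0.0015).

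**Figure D3:**
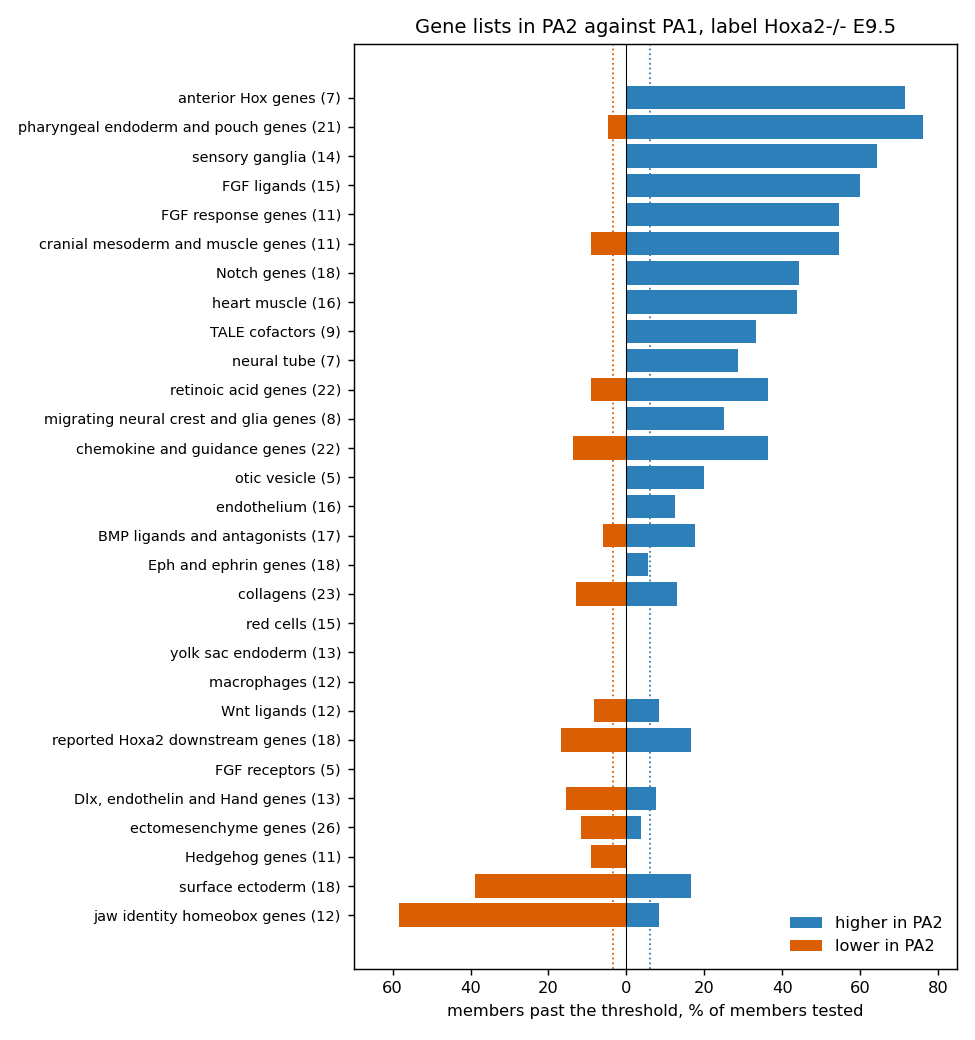
Share of tested members called higher (blue, right) and lower (orange, left) in PA2 for 29 gene lists, with the number tested in parentheses and dotted lines at 6.12% and 3.47%, the shares over all genes. The anterior Hox, endoderm and pouch, sensory ganglia and FGF ligand lists reach farthest to the right (16 of 21 for endoderm and pouch), and the jaw homeobox and surface ectoderm lists farthest to the left (7 of 12 and 7 of 18).

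The genes that pattern an arch from top to bottom were called in both directions. Of 13 Dlx, endothelin and Hand genes tested, 1 was called higher and 2 lower, with a median of -0.03. Over all genes 6.12% were called higher and 3.47% lower. With the embryo as a block the list gave 3 higher and 2 lower, against 8.9% and 6.95% of all genes. Edn1, the endothelin ligand of arch ectoderm and core, was at 28.1, 25.7, 16.0, 9.26 and 15.2 CPM in PA1 and 39.6, 42.0, 32.6, 19.0 and 32.6 in PA2 and higher in PA2 of each embryo (0.83, SE 0.23, adjusted p 0.012). Dlx4 and Dlx3 were called lower (-1.15 and -0.91), and each was higher in PA2 than in PA1 in embryo 4. Neither was called by edgeR (adjusted p 0.38 and 0.19), and with only the groups compared none of the list was called. Dlx1, Dlx2, Dlx5, Dlx6, Hand1 and Hand2 had 0.40, 0.15, -0.32, -0.46, -0.80 and -0.54 and were not called. Among 26 ectomesenchyme genes, 3 were called lower (Foxf1, Foxd1 and Prrx1, at -1.87, -1.46 and -0.75) and 1 higher (Foxl2), with a median of -0.01, against 1 and 1 with only the groups compared. Foxf1, a forkhead gene, did not overlap between the arches, at 15.7 to 46.2 CPM in PA1 and 1.93 to 14.7 in PA2.

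Genes of surface ectoderm divided. Of 18 tested, 7 were called lower in PA2 and 3 higher. Krt14 (ENSMUSG00000045545, chr11:100203162-100207548, minus strand), a keratin of basal epidermis, stood at 9.57, 13.0, 9.16, 11.3 and 8.49 CPM in PA1 and 0.621, 0.981, 0.653, 1.65 and 0.972 in PA2 (-2.52, SE 0.22, adjusted p 2.6e-13). Trp63, the p63 gene of stratified epithelium, was at 89.8, 116, 106, 113 and 117 CPM in PA1 and 32.9, 45.4, 50.9, 63.2 and 74.0 in PA2 (-1.052), and Fam83f at 16.4 to 26.6 and 4.25 to 5.76 (-1.90). None of the 3 overlapped between the arches. Perp, Krt15, Krt19 and Krt17 had -1.22, -1.30, -0.64 and -0.59. The members called higher are pan-epithelial or early ectoderm genes: Epcam (0.67), Cldn6 (0.75) and Grhl1 (1.22). The summed level of the list overlapped between the arches, with 889 to 1622 CPM in PA1 and 721 to 1306 in PA2, and its part in the differences above was not tested. The bases before Krt14 (chr11:100206031-100206280, minus strand, inside the annotated span but in no exon) are shown as those of a gene on the PA1 side, with a MEIS motif match, in reverse, in capitals.
Krt14: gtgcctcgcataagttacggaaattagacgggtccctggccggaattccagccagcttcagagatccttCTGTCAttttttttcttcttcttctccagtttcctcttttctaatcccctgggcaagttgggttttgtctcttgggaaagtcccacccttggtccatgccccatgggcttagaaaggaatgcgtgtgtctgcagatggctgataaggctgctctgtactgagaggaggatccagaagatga

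Retinoic acid, a vitamin A derivative that sets Hox domains and pouch formation, is made by retinal dehydrogenases and cleared by CYP26 enzymes. Of 22 genes of this pathway tested, 8 were called higher and 2 lower in PA2, and 6 and 0 with only the groups compared in the fit. Rarres1, a gene first found as induced by retinoids, stood at 0.594, 0.237, 0.141, 0.522 and 0.747 CPM in PA1 and 8.69, 12.6, 10.8, 35.6 and 16.0 in PA2 (3.46, SE 0.30, adjusted p 1.7e-13, and 3.18 without embryo 4). The clearing enzymes parted in direction: Cyp26b1 was at 0 to 0.396 CPM in PA1 and 5.03, 6.37, 4.28, 1.22 and 5.42 in PA2 (2.14), whereas Cyp26c1 was at 12.5, 16.8, 6.76, 1.5 and 11.5 in PA1 and 0.216 to 4.55 in PA2 (-1.43, adjusted p 0.0023). With only the groups compared Cyp26c1 was not called (adjusted p 0.16), nor was the receptor gene Rarg (0.145), which edgeR did not call either (0.060). Rdh10, which makes retinal, had 1.00, the binding protein Crabp1 0.93, the transporter Stra6 0.80, and the receptors Rxrg, Rara and Rarg 1.11, 0.32 and -0.57. Aldh1a2, the main retinoic acid maker of the embryo, did not exceed 2.82 CPM in any of the 10 libraries and was not called (-0.27).

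Notch genes, which act between touching cells, were called higher for 8 of 18 tested and lower for 0 (11 and 0 with the block, 4 and 0 with only the groups compared or without embryos 3 and 4). Heyl, a Notch-induced repressor, stood at 6.73, 5.22, 3.95, 3.13 and 7.06 CPM in PA1 and 15.03, 16.8, 28.9, 26.9 and 18.5 in PA2 (1.84, SE 0.23, adjusted p 1.5e-08). Its relative Hey1 was at 20.48 to 56.9 and 81.3 to 117 CPM (1.56), and the ligand Jag1 at 25.6 to 55.0 and 75.8 to 104 (1.23). None of these 3 overlapped between the arches. Notch1, Dll4, Nrarp, Mfng and Hes1 were called as well.

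Cranial mesoderm and muscle genes were called higher for 6 of 11 tested and lower for 1. Without embryos 3 and 4 the list gave 3 and 1, and with only the groups compared 4 and 1. Tcf21, of the muscle progenitors of the arch core, stood at 11.7, 14.1, 7.12, 4.50 and 7.06 CPM in PA1 and 34.8, 24.1, 24.7, 19.3 and 16.4 in PA2, with no overlap (1.38, SE 0.22, adjusted p 5e-06). Lhx2 had 1.32, Ebf2 0.88 and Myf5, a muscle determination gene, 0.61. Meox1, a homeobox gene of paraxial mesoderm and of PA2, stood at 0.132 to 0.883 CPM in PA1 and 8.69, 8.91, 16.2, 1.01 and 7.64 in PA2 (2.56, and 3.03 without embryo 4). PA2 of embryo 4 was thus just above the highest PA1 library.

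Markers of some other tissues differed between the arches. Heart muscle genes summed to 141, 46.0, 51.4, 21.0 and 26.6 CPM in PA1 and 84.6, 579, 835, 19.8 and 500.5 in PA2 of embryos 1 to 5. Their sums were thus far higher in PA2 of embryos 2, 3 and 5 and not in embryos 1 and 4, and 7 of 16 were called higher and 0 lower. With only the groups compared in the fit 1 was called, 4 without embryos 3 and 4, and 11 by edgeR. Myh7, a myosin heavy chain near-identical to Myh6 in stretches, was at 20, 3.88, 3.73, 2.61 and 4.96 CPM in PA1 and 18.5, 100, 226, 4.81 and 134 in PA2 (3.01, adjusted p 0.0049). Myl7, the atrial light chain, had 2.52 (adjusted p 0.041) and was not called without PA2 of embryo 2, 3 or 5 or without PA1 of embryo 2, 3, 4 or 5 (adjusted p 0.063 to 0.18). What part this tissue has in the other differences was not tested.

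Sensory ganglion genes summed to 39.1, 54.9, 37.3, 33.1 and 44.1 CPM in PA1 and 98.4, 62.1, 133, 35.1 and 102 in PA2. Of 14 tested, 9 were called higher and 0 lower (12 with the block, 5 with only the groups compared). Neurog2, which starts neurons of the epibranchial ganglia, stood at 4.48, 1.06, 9.72, 0 and 5.14 CPM in PA2 of embryos 1 to 5 and was at 0.0679 or less in PA1 (1.87, adjusted p 0.0025). It was thus at 0 in PA2 of embryo 4 and present in the other 4. Sox10, of migrating crest and glia, was at 24.5, 6.29, 14.3, 0.359 and 5.56 CPM in PA2 and 0.261 to 1.72 in PA1 (1.93, adjusted p 0.0057).

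Red cell genes summed to 2309, 6244, 6155, 2467 and 4030 CPM in PA1 and 931, 1679, 3783, 1240 and 1976 in PA2, lower in PA2 of each embryo. None of 15 was called higher or lower, with 4297 genes at an unadjusted p under 0.05 over the table and 0 of the list called by edgeR, but 9 were called lower with the embryo as a block (median -1.04). Globin genes share reads with near copies and are uncertain. Endothelial genes gave 2 of 16 higher, Sox17, which also counts in the pouch list, and Plvap, and 6 with the block. None of 12 macrophage and 13 yolk sac genes was called by limma or edgeR. Macrophage genes summed to at most 13.4 CPM, with Adgre1 at 0 in 4 of 5 libraries of each arch. Neural tube and otic vesicle genes gave 2 of 7 and 1 of 5 higher and 0 lower, with sums that overlapped between the arches. The otic member called was Sox10, given above as a gene of migrating crest and glia.

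**Figure D4:**
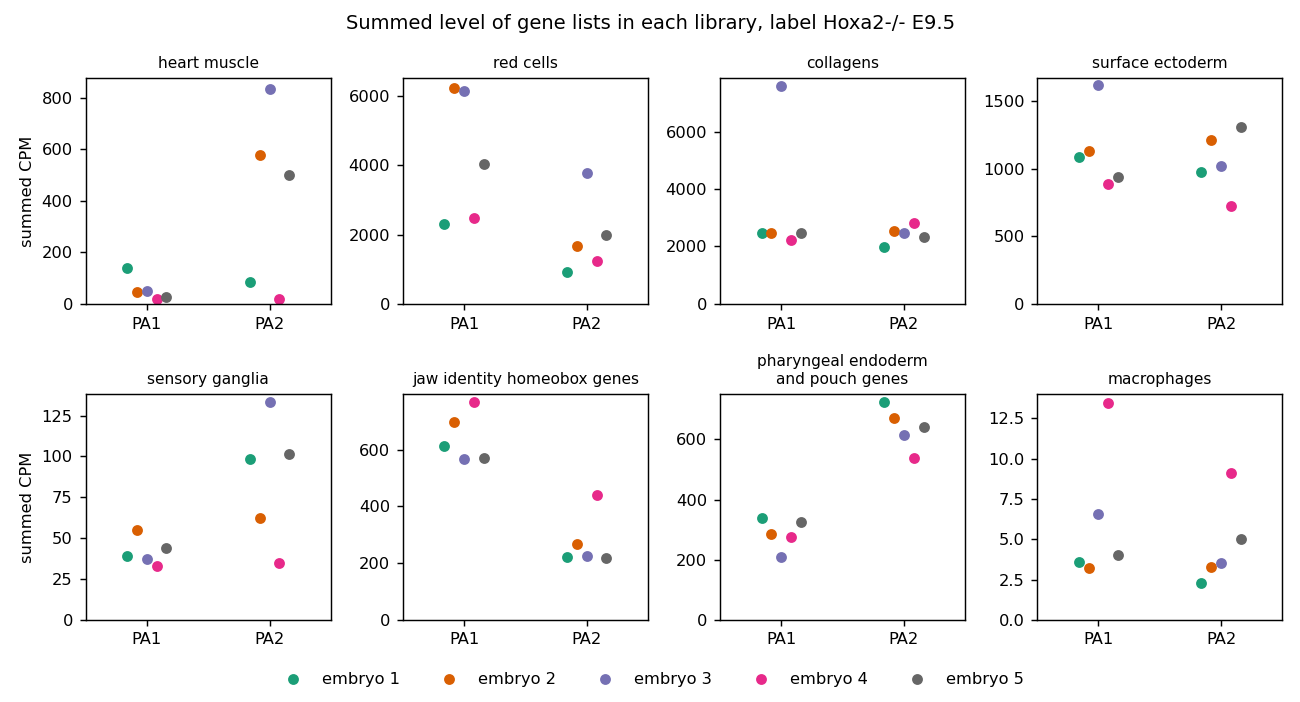
Summed CPM of 8 gene lists in each library labelled Hoxa2-/- at E9.5, one point per embryo, PA1 left and PA2 right in each panel, axes from 0. Heart muscle reaches 500.5 to 835 CPM in PA2 of embryos 2, 3 and 5 and 84.6 and 19.8 in embryos 1 and 4. The jaw homeobox and pouch lists do not overlap between the arches.

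Several signals that steer migrating cells differed as well, while collagens were called in both directions. Of 22 chemokine and guidance genes, 8 were called higher and 3 lower (7 and 0 with only the groups compared). Slit2, a repulsive cue, stood at 24.1, 20, 36.8, 23.4 and 23.9 CPM in PA1 and 63.0, 62.9, 65.6, 57.4 and 83.9 in PA2 (1.36, SE 0.20, adjusted p 9.3e-07). The chemokine Cxcl12 was at 86.6 to 120 and 149 to 181 CPM (0.65), and its receptor Cxcr4 had 0.59. Neither Slit2 nor Cxcl12 overlapped between the arches. Sema3e, Ackr3 and Sema3a were called lower, of which Sema3e was at 77.0 CPM in PA1 of embryo 3 and 7.83 to 18.8 in the other PA1 libraries (-1.77, and -1.26 without that library). Ackr3 was not called without that library (adjusted p 0.30). Postn was called lower, at -2.57 with all libraries and -1.54 (adjusted p 0.030) without PA1 of embryo 3, and it was not called with only the groups compared (0.13). Of 23 collagens, 3 were called in each direction, with a median of 0.03 against -0.02 for all genes tested. They gave 3 higher and 2 lower without embryos 3 and 4, and 4 and 0 with only the groups compared. Among other pathways, Wnt9b was the 1 Wnt ligand of 12 called higher (0.83) and Wnt4 the 1 called lower (-1.27). Of 17 BMP genes, 3 were higher (Bmp6, Grem1 and Id2) and 1 lower (Gdf6), and 1 of 11 Hedgehog genes was lower (Gas1). Over all genes 6.12% were called higher and 3.47% lower, so these small counts are given as a description only.

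Several named genes belong to none of these lists. Higher in PA2 were Cyp1b1, a monooxygenase (7.20 to 22.1 CPM in PA1 and 57.3 to 108 in PA2, 2.67), Fyb2 (0.0652 to 1.90 and 7.83 to 15.5, 2.78) and Ctxn3 (0 to 0.237, and 16.3, 8.09, 11.5, 0.359 and 7.85, 2.73). Lower were Car4, a carbonic anhydrase (13.4 to 98.4 and 1.94 to 13.7, -2.19, and -1.87 without PA1 of embryo 3), Nell2 (5.34 to 17.2 and 0.817 to 4.60, -1.998), Gpr50 (-1.82), Col8a2 (-1.80) and Dlx4os (-1.65). Cyp1b1, Fyb2, Ctxn3 and Nell2 did not overlap between the arches. For Ctxn3 the gap, from 0.237 CPM in PA1 to 0.359 in PA2 of embryo 4, lay near the floor of 3 reads. Dlx4os, Gpr50 and Col8a2 were at or above the range of most PA1 libraries in PA2 of embryo 4, and Dlx4os was not called by edgeR (adjusted p 0.28).

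The wildtype arches of E9.5, which share no library with these, were then set beside them. In wildtype 4854 genes were called (26.3%, with 12.7% higher and 13.7% lower), and 1393 genes were called in the same direction under both labels, 78.9% of the calls with the label Hoxa2-/- and 28.7% of the wildtype calls. No gene was called in opposite directions. Nkx2-6 differed by 4.08 with the label Hoxa2-/- and 3.77 in wildtype, Fgf3 by 4.03 and 4.39, Pax1 by 3.09 and 2.51, Pitx1 by -4.09 and -4.58, and Krt14 by -2.52 and -1.94. Msx1 differed by -0.97 with the label Hoxa2-/- and by -0.21 in wildtype, where it was not called, but the difference between these values did not pass its own test (adjusted p 0.93). Against that larger wildtype background, pouch genes gave 14 higher and 1 lower in wildtype, and jaw homeobox genes 1 and 6.

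**Figure D5:**
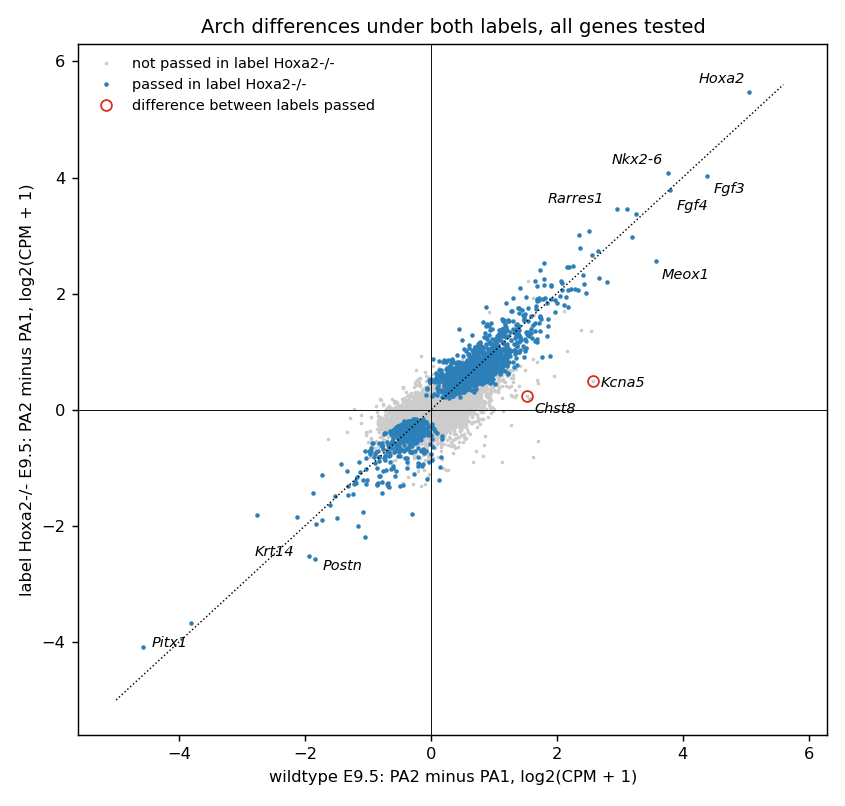
Log2 difference of PA2 minus PA1 for all 18428 genes tested, wildtype E9.5 on the horizontal axis and the label Hoxa2-/- on the vertical axis, in log2(CPM + 1), with a dotted line at equal values. Genes called with the label Hoxa2-/- (blue) lie along that line, and Kcna5 (0.49 against 2.58) and Chst8 (0.24 against 1.53), circled in red, lie below it.

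The difference between the labels was tested itself and was called for 2 genes, 0.0109% of those tested, with 815 at an unadjusted p under 0.05. Kcna5 (ENSMUSG00000045534, chr6:126532551-126535412, minus strand), a potassium channel gene, stood at 28.6, 28.7, 21.8 and 30.1 CPM in wildtype PA2 and at 6.55, 6.78, 6.31, 7.26 and 6.11 in PA2 labelled Hoxa2-/-. In PA1 it was at 2.70 to 4.56 and 3.04 to 9.51 CPM. The arch difference was smaller by 2.09 with the label Hoxa2-/- (log2 -2.09, SE 0.25, adjusted p 4.2e-07), and wildtype PA2 was the one group of the 4 that stood high. Chst8, a sulfotransferase gene, was at 2.95 to 5.46 CPM in wildtype PA2 and 0.647 to 1.66 in PA2 labelled Hoxa2-/- (-1.29, adjusted p 0.032). Chst8 was not called by edgeR (adjusted p 0.62), with a pseudocount of 0.25 (0.75), with only the groups compared (0.96), without embryo 4 (0.069), or without any of 11 single libraries (0.051 to 0.18). Each embryo carries 1 label, so the label and anything else that sets those embryos apart cannot be told apart. The arch difference of Kcna5 with the label Hoxa2-/- was itself not called (0.49, adjusted p 0.063, and 0.049 with the block).

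A list of 18 genes that earlier work names as downstream of Hoxa2 was read in the same way. With the label Hoxa2-/-, 3 were called higher and 3 lower (6 and 3 with the block), against 10 and 3 in wildtype. Of all genes, 6.12% and 3.47% were called higher and lower with the label Hoxa2-/- and 12.7% and 13.7% in wildtype, so the counts of the list stand on unequal backgrounds. Meox1 had 2.56 and 3.57, Meis1 0.93 and 1.89, Fzd4 0.77 and 1.04, Zfp503 0.01 and 0.87, Vcam1 0.11 and 0.85, and Alx4 0.52 and 0.91, with the label Hoxa2-/- given before wildtype. The adjusted p of the difference between labels was 0.054 for Meis1 and 0.93 for Meox1, so of the list Kcna5 alone passed that test.

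Stages were compared within the label, and both changes below share the libraries of E9.5. At E9.0, 4527 genes were called between the arches (24.6%, with 12.1% higher in PA2 and 12.5% lower). At E10.0 there were 779 (4.23%, 3.13% higher and 1.1% lower), and at E10.5 there were 252 (1.37%, 0.982% higher and 0.385% lower). The groups hold unequal numbers of libraries, with 3 and 3 at E10.5, so the counts cannot be compared directly across stages. At all 4 stages 77 genes were called higher and 11 lower. The members among named and listed genes were 21 higher, Hoxa2, Hoxb2, Hoxa3, Hoxaas2, Meis1, Nkx2-6, Pax1, Pax9, Tbx1, Isl1, Fgf3, Fgf4, Fgf15, Fgf20, Fgf13, Rdh10, Rxrg, Hey1, Tcf21, Cyp1b1 and Fyb2, and 6 lower, among them Pitx1, Lhx8, Krt14, Krt17 and Fam83f. From the earliest stage to the latest, Hoxa2 differed by 4.70, 5.47, 6.17 and 6.60, Pax1 by 1.98, 3.09, 3.89 and 3.81, and Fgf3 by 4.07, 4.03, 2.90 and 1.88. Pitx1 differed by -3.25, -4.09, -3.61 and -2.92, and Barx1 by -2.03, -1.84, -0.23 and 0.00.

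The change of the arch difference from E9.0 to E9.5 was called for 187 genes (1.01%), 101 toward PA2 (0.548%) and 86 toward PA1 (0.467%). This count moved to 875 with the block, 59 with edgeR, 58 without embryo 4 and 4 with only the groups compared. It was 67, 73, 853, 737, 91 and 107 without PA1 replicate 1, PA1 replicate 3, PA2 replicate 1, 2, 3 and 4 of E9.0, and 73, 98 and 282 without PA1 of embryo 3, 4 and 5 of E9.5. Rarres1 rose in PA2, from 3.59 ± 2.89 CPM (SD, n = 4) at E9.0 to 16.7 ± 10.9 (n = 5), and its arch difference went from 0.39 to 3.46 (change 3.08, SE 0.45, adjusted p 3.3e-05). Heyl turned from -0.69 to 1.84 (adjusted p 5.7e-06), Meox2 from -1.56 to 0.32 and Cdh19 from -0.70 to 1.14. Hoxb1, which earlier marks the hindbrain segment behind PA2, lost its difference: PA2 fell from 6.26 ± 2.22 CPM (n = 4) to 0.979 ± 0.944 (n = 5), and the arch difference from 2.40 to 0.34 (adjusted p 0.00082). Gbx2 went from 2.61 to 0.55, Ret from 3.84 to 2.13 and Pyy, a gut peptide gene, from 2.52 to 0.25. With edgeR, Hoxb1 (adjusted p 0.060), Ret (0.435) and Pyy (0.76) were not called, and Ret was not called without embryo 4 (0.10). The change of Heyl and that of Rarres1 passed under every alternative run. That of Cdh19 did not pass with a pseudocount of 0.25 (adjusted p 0.085), without embryos 3 and 4 (0.053) or without any of 8 single libraries (0.052 to 0.11). With only the groups compared Cdh19 (0.38), Meox2 (0.30), Hoxb1 (0.296), Gbx2 (0.14), Ret (0.34) and Pyy (0.051) did not pass, and Meox2 did not without embryos 3 and 4 (0.13).

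From E9.5 to E10.0 the change was called for 17 genes (0.0923%), 2 toward PA2 (0.0109%) and 15 toward PA1 (0.0814%). It was called for 73 without embryo 4, 26 with the block, and 0 with edgeR or with only the groups compared (710 and 754 genes at an unadjusted p under 0.05). Without single libraries the count ran from 5 to 53, and was 53 and 31 without PA2 and PA1 of embryo 4. Hmx1, a homeobox gene, went from 0.31 to 2.84 (adjusted p 0.0033), and was at 8.84 CPM in PA2 of embryo 4, at most 0.208 in the other 4 and 8.61 to 18.1 at E10.0. Meox1 went from 2.56 to 0.50 and Fgf4 from 3.78 to 1.93 (adjusted p 0.048 and 0.047), and neither passed without most of the single libraries (0.052 to 0.23 for Meox1 and 0.062 to 0.196 for Fgf4). Fgf8 and Lhx6, list genes outside the rule for the largest changes, were called too, Fgf8 going from -0.40 to -1.68 and Lhx6 from -0.37 to -2.13.

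Genes beside the strongest members were read for a shared direction. On chromosome 12, Nkx2-1, Sfta3-ps and Pax9 were called higher (1.96, 2.12 and 1.92), Nkx2-9 between them was called lower (-0.55) and Mbip was not called (-0.08). Gm47071, which overlaps Pitx1 on the other strand, was called lower (-1.97), and its reads cannot be told from those of Pitx1 without strand.

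The 250 bases before each start were searched on both strands for TGATNNAT, a HOX-PBX motif, and TGACAG, a MEIS motif, which cannot match at the same start on a strand. RefSeq windows were matched for 11361 of the genes tested. TGATNNAT was in 4.86% of these, 7.09% of the 818 higher in PA2 and 5.99% of the 367 lower, and in 7.68% of all 32851 windows. TGACAG was in 16.5%, 18.8%, 11.2% and 15.9% in the same order. Of the windows printed above, that of Hoxa2 holds 1 match to each motif, and those of Fgf4, Pax9 and Krt14 hold 1 to TGACAG. A match is a description of letters in this window.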

How the data were processed

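RNA of single arches was sequenced from SMART-seq v4 cDNA and Nextera XT libraries, per the labels' protocols. The submitters' processing notes name bcl2fastq 2.18, TopHat2 2.1.1, R 3.3.2 and mm10. The counting program, its annotation and its use of strand are not given in the sources used here. The authors deposited 1 table of 21948 genes in 68 libraries, whose values are recorded as a signal: they are CPM-like, but the deposited column totals run from 926298 to 1051959. They were used as CPM, as planned. In 67 libraries every value came out as a whole read (within 0.01 read), and edgeR 4.0.16 was run on those reads as an alternative.

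Genes with at least 1 CPM in at least 3 libraries were tested (18428) by limma 3.58.1 (R 4.3.3). Values entered as log2(CPM + 1), 1 mean per group over all 68 libraries, two-sided, with trended prior variance and Benjamini-Hochberg adjusted p-values. Same-numbered arches deviated together (r 0.222 to 0.441 in 5 pairs, against a median of -0.126 in 20 other pairs), and a block for embryo was an alternative. Replicate libraries differed beyond sampling noise (chi-square per degree of freedom 6.21 to 30.0). The script for the tests was tested on simulated data. Embryos are separate animals.

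Named genes are the 15 largest called differences in each direction with a mean of at least 5 CPM in an arch (no Gm or Rik symbols), the 5 largest changes in each direction between comparisons (all, where 10 or fewer), and members of 29 lists. Bcl11a and the neighbours of strong members were chosen after their values were seen. Symbols, spans and exons came from GENCODE M21. Some members that count in the lists are not reported here by name. The members and lists were chosen with earlier results of these data known. Reads are not independent molecules, so floors cover counting error only.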

Additional observations from a re-analysis of the deposited data

Results flagged for a closer look

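Dixon's test was run on untransformed CPM of the named genes of the arch comparison and on list sums that hold some of them. No chance rate is therefore given for it. In 23 of 120 groups of 5 libraries, 1 library lay far from the other 4 by this test at 95%. Of these, 10 were PA2 of embryo 4: Hoxa2 101.7, Rarres1 35.57, Pax8 1.293, Barx1 227.9, Col8a2 10.71, Dlx4os 17.6 and Lhx8 6.61 CPM, and the sums of the anterior Hox genes (129), the reported Hoxa2 downstream genes (1025) and the jaw homeobox genes (439.9). PA1 of embryo 4 stood apart in Lhx8 (55.51 CPM). PA1 of embryo 3 stood apart in Postn (2507 CPM) and Sema3e (77.02 CPM) and in the sums of collagens (7573), chemokine and guidance genes (1066) and FGF response genes (434.2, low).

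PA1 of embryo 1 stood apart in Nkx2-6 (4.025 CPM), Cyp1b1 (22.11), Myh7 (20), Myl7 (12.74) and the heart muscle sum (141.2). PA2 of embryo 5 was high in Fam83f (5.765 CPM) and PA2 of embryo 3 in the yolk sac sum (43.75).

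Arch differences that themselves differed, by limma's test of the difference, are given as log2 changes. Between labels at E9.5 these were Kcna5 (-2.093) and Chst8 (-1.292). From E9.0 to E9.5 they were Rarres1 (3.075), Heyl (2.53), Meox2 (1.886), Cdh19 (1.833) and Fyb2 (1.603) toward PA2, and Pyy (-2.27), Hoxb1 (-2.061), Gbx2 (-2.053), Hand2os1 (-1.8) and Ret (-1.708) toward PA1. From E9.5 to E10.0 they were Hmx1 (2.528) and Hoxaas2 (0.8919) toward PA2, and AI606473 (-2.514), Slitrk6 (-2.074), Meox1 (-2.06) and Fgf4 (-1.847) toward PA1. Hand2os1 is antisense, and without strand its reads are uncertain.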

How the results depend on the processing

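The tests were repeated with a pseudocount of 0.25 or 5, without the filter or with it at 5 CPM, with size factors by median of ratios, with only the groups compared, with an embryo block, without each library in turn and with edgeR. Leaving out embryo 4, or embryos 3 and 4, was added after seeing the data. For all that moved, the cause was not tested. Fits that left libraries out had fewer samples, yet some of their counts rose.

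The 1766 genes called between the arches became 870 with only the groups compared and 2922 with the replicate block, and ran from 1243 to 2283 without single libraries. With edgeR 1708 were called, 1260 higher and 448 lower. The 1393 calls shared with wildtype became 720 with only the groups compared and 2237 with the block (1012 to 1645 without single libraries). Over 21 alternatives of the 30 named genes, 605 of 630 values kept their call and all 630 their direction, and 10 genes lost the call at least once. The named genes of the other tests held less often. The call was kept for 42 of 59 values of the 2 genes that differed between labels, 250 of 290 of the 10 genes that changed from E9.0 and 129 of 217 of the 7 genes that changed to E10.0. At least 1 alternative ended the call of 1 of these 2 genes, 8 of the 10 and 7 of the 7.

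The 2 genes that differed between labels became 1 with a pseudocount of 0.25, the 5 CPM filter, only the groups compared, edgeR, or without embryo 4 or embryos 3 and 4 (1 to 3 without single libraries). The 187 changes from E9.0 became 4 with only the groups compared, 875 with the block, 59 with edgeR, 58 without embryo 4, 11 without embryos 3 and 4, and 314 with the block and without embryo 4 (67 to 853 without single libraries). The 17 changes to E10.0 became 2 with a pseudocount of 0.25, 0 with only the groups compared and with edgeR, 26 with the block, 73 without embryo 4, 42 without embryos 3 and 4, and 157 with the block and without embryo 4 (5 to 53 without single libraries). One value reversed: the change of Fgf4 from E9.5 to E10.0 was 1.21 with edgeR (adjusted p 1), where PA1 holds 0 reads at E10.0. The block ended no call among the 30 named genes.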
